A study of Mus musculus with 12 samples.

Results

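The genes described here are 47 genes of the cell cycle and of DNA replication, measured in the livers of mice on a control or an iron-loaded diet. They were chosen by name, from the cyclins that start DNA synthesis to the motors that separate the daughter cells, and not by their values. Earlier results of these data were known when they were chosen. All 47 were found among the 27022 genes of the count table by their Ensembl identifier. They were put into 7 groups by role, namely 4 cyclins of G1 and S phase, 5 transcription and chromatin regulators, 7 genes of the replication helicase and clamp, 4 genes of deoxynucleotide supply, 9 genes of mitotic entry and exit, 10 genes of chromosomes, centromere and checkpoint, and 8 genes of the spindle and of cytokinesis.

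The mice were 6 females of the inbred strain SJL/J, all without a genetic change and all 11 weeks old at collection. The 3 control mice stayed on an AIN-93G diet with 50 ppm iron, and the 3 iron-loaded mice ate the same base diet with 2% carbonyl iron from 6 weeks of age. Each diet was housed as 1 cage, and an effect of the cage cannot be told apart from one of the diet. The livers were perfused with saline, and the RNA of each gave 1 Trad-KAPA library, which covers whole transcripts, and 1 3'-LEXO library, which reads the 3' end, 12 libraries in all.

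The cell cycle runs from G1 through S phase, in which the DNA is copied, and G2 to mitosis. D-type and E-type cyclins activate the kinases that free the E2F factors, which switch on the genes of DNA synthesis, and a later wave of genes for mitosis is switched on in G2 by the B-Myb and FoxM1 complexes. Most hepatocytes of an adult liver are quiescent, so that the RNA of these genes is scarce unless the tissue regenerates or dividing cells of other types are present.

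The libraries held from 13834682 to 16553616 counts in Trad-KAPA and from 10724672 to 14104236 with 3'-LEXO. Levels are expressed in CPM, which scales each library to 1000000 counts, and differences between diets as log2 fold changes of iron-loaded minus control mice. The tissue was checked with 8 hepatocyte markers such as albumin, whose sum was between 117634 and 156771 CPM in Trad-KAPA. Of the 8, 0 were called in either kit (edgeR quasi-likelihood test, Benjamini-Hochberg adjusted, and DESeq2), and at p under 0.05 without adjustment 0 passed in Trad-KAPA and 1 with 3'-LEXO. In bulk RNA, fewer cells of a type and less RNA per cell cannot be told apart.

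The promoters of 4 members are shown because these genes carry the results: Ccne1, which rose, E2f8, which fell, and Cdk1 and Top2a as mitotic genes whose levels differed more between mice than between diets. They are RefSeq windows of the GRCm38.p6 assembly, from 250 bases before to 50 bases after the transcription start, all on the minus strand of the chromosome and printed 5' to 3' along the gene. Capitals mark matches to the E2F motifs TCCCGC and TGGCGC, the CHR motifs TTTGAA and TTCGAA, and the CCAAT box, each searched on both strands. The windows lie at chr7:38107441-38107740 for Ccne1, chr7:48881547-48881846 for E2f8, chr10:69352863-69353162 for Cdk1 and chr11:99024140-99024439 for Top2a.
Ccne1: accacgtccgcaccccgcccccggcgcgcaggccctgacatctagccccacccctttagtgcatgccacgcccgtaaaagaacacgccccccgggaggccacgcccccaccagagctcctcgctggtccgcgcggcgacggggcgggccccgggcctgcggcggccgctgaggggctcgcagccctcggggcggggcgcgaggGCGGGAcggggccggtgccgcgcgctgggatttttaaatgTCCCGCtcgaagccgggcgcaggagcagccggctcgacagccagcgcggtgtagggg
E2f8: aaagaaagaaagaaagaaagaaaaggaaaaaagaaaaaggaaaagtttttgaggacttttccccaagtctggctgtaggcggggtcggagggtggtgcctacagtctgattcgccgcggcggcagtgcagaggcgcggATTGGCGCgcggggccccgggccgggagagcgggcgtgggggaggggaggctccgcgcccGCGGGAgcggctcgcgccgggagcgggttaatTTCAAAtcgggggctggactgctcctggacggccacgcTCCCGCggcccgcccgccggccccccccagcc
Cdk1: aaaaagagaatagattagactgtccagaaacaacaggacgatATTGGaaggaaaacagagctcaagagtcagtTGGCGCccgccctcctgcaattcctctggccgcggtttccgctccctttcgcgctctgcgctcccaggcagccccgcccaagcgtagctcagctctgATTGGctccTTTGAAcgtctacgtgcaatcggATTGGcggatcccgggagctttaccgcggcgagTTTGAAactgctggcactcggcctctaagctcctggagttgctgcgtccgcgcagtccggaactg
Top2a: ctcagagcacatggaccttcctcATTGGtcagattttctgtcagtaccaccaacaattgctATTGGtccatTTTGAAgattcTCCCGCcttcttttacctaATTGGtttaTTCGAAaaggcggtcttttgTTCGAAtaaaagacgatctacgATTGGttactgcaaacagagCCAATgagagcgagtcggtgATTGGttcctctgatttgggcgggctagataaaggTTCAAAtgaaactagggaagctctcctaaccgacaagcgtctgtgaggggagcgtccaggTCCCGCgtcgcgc

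The Ccne1 window holds E2F matches only, whereas that of E2f8 holds all 3 kinds, with a CCAAT match that shares bases with an E2F match. Cdk1 and Top2a each hold several CHR and CCAAT matches within the window. Of the 47 members, 38 had a window in the table, and Aurkb, Ccna2, Ccnd1, Ccne2, Cdc25c, Foxm1, Kif20a, Mcm4 and Tpx2 had none. A CHR match was present in 19 of 23 members of the 3 mitotic groups, 82.6%, against 3 of the 15 other members, 20.0%, and 19.2% of all 32851 windows. E2F matches had the opposite distribution, with 14 of 23 mitotic members and 13 of the 15 others, against 27.7% of all windows. CHR and CCAAT occurred together in 17 of 23 mitotic members, 73.9%, against 7.52% of all windows. A match is a description of these letters, and binding was not measured.

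With both kits, 3 members changed with diet. The E-type cyclins Ccne1 and Ccne2, which activate Cdk2 at the start of S phase, rose in iron-loaded livers, and E2f8, a repressor of the E2F family that lacks the DP partner, fell. The change was between 2.37-fold and 5.88-fold in either kit, and the values of the 2 diets did not overlap for any of the 3 genes. Of all 47 members, untested ones included, the groups did not overlap for 5 that were higher and 1 that was lower in Trad-KAPA. Of all tested genes, 24.7% and 16.6% lay apart in this way. With 3'-LEXO it was 3 and 3 members, against 18.5% and 12.8% of all tested genes. The 5 include Cdc25c, with at most 3 reads in any Trad-KAPA library. The 3 lower ones in 3'-LEXO include Kif11, with 1 to 12 reads there. The test of edgeR called 3 of 38 tested members in Trad-KAPA, where 17.1% of all tested genes were called, and 3 of 36 in 3'-LEXO, where 6.10% were. In Trad-KAPA, 35 tested members were not called and 9 had too few reads to be tested, and in 3'-LEXO these were 33 and 11.

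Ccne1 (chr7:38097984-38107534, protein-coding) stood at 1.09, 1.21 and 0.289 CPM in the 3 control mice and at 4.71, 5.74 and 5.75 CPM in the iron-loaded mice with Trad-KAPA. With 3'-LEXO it was 2.64, 3.08 and 0.780 CPM in control and 6.21, 7.18 and 7.36 CPM in iron-loaded mice. In both kits the lowest iron-loaded mouse was above the highest control mouse, and control mouse 3 was far below its cage mates. The log2 fold change was 2.56 ± 0.37 (SE) in Trad-KAPA (edgeR adjusted p = 0.00579) and 1.63 ± 0.37 in 3'-LEXO (edgeR adjusted p = 0.0359). Fits with 1 library left out have fewer mice. Over all genes they gave from 841 to 2803 calls in Trad-KAPA, against 2255 with all libraries, and from 199 to 871 in 3'-LEXO, against 811. In Trad-KAPA Ccne1 was called whichever library was left out, with values from 2.19 to 2.84. In 3'-LEXO it passed only without iron-loaded mouse 1 and was lost when control mouse 1, 2 or 3 or iron-loaded mouse 2 or 3 was left out, with values from 1.24 to 1.94 and edgeR adjusted p from 0.0226 to 0.0894.

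Ccne2 (chr4:11191351-11204779, protein-coding) was at 1.45, 2.01 and 1.52 CPM in control and 3.07, 3.96 and 5.32 CPM in iron-loaded mice with Trad-KAPA. The 3'-LEXO libraries gave 1.71, 1.65 and 1.35 CPM in control and 3.76, 4.76 and 7.09 CPM in iron-loaded mice. Iron-loaded mouse 3 was the highest in both kits, and the diets did not overlap. The log2 fold change was 1.24 ± 0.28 in Trad-KAPA (edgeR adjusted p = 0.0227) and 1.67 ± 0.31 in 3'-LEXO (edgeR adjusted p = 0.0169). The call stood in Trad-KAPA only without iron-loaded mouse 1, and in 3'-LEXO only without iron-loaded mouse 1 or 2. Leaving out any other library lost it, with log2 fold changes between 1.01 and 1.44 in Trad-KAPA and between 1.35 and 1.87 in 3'-LEXO. Of its 3495 exonic bases, 609 are shared with Ints8 on the opposite strand, whose log2 fold change in Trad-KAPA was 0.30 (edgeR adjusted p = 0.249).

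E2f8 (chr7:48866429-48881596, protein-coding) was at 3.62, 8.37 and 5.93 CPM in control and 1.29, 1.30 and 1.87 CPM in iron-loaded mice with Trad-KAPA. With 3'-LEXO the values were 5.29, 12.1 and 6.38 CPM in control and 1.15, 1.77 and 2.09 CPM in iron-loaded mice. Control mouse 2 was the highest in both kits, and each control mouse was above each iron-loaded mouse. The fall was 4.20-fold in Trad-KAPA (log2 fold change -2.07 ± 0.35, edgeR adjusted p = 0.00932) and 4.92-fold in 3'-LEXO (-2.30 ± 0.37, edgeR adjusted p = 0.00873). It was called in all 6 fits that left out 1 library in Trad-KAPA and in all 6 with 3'-LEXO, with the smallest fall, by 1.77 and 1.90 on the log2 scale, without control mouse 2. DESeq2 called the same 3 genes in both kits.

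The E2f8 gene shares 610 of its 5443 exonic bases with Gm2788, a processed transcript on the opposite strand. Whether strand was used in counting is not given in the sources used here, so that reads from the shared bases cannot be assigned to either gene. Gm2788 itself was at 11.8, 41.1 and 33.5 CPM in control and 2.64, 4.37 and 3.67 CPM in iron-loaded mice with Trad-KAPA. Its log2 fold change was -3.08 in Trad-KAPA (edgeR adjusted p = 0.00644) and -1.69 in 3'-LEXO (edgeR adjusted p = 0.0359), so that it fell as E2f8 did. Erythroid markers also differed between the mice. Of 7 such markers, 5 were tested, all 5 had a negative log2 fold change and an unadjusted p under 0.05 in both kits, and edgeR called only Slc4a1, the anion exchanger of red cells, in Trad-KAPA (-3.26, edgeR adjusted p = 0.0250). DESeq2 called 1 erythroid marker lower in each kit. The summed level of the 7 ran from 21.6 to 154 CPM in control and from 16.9 to 29.5 CPM in iron-loaded mice in Trad-KAPA, and from 161 to 1216 CPM and from 120 to 209 CPM with 3'-LEXO. Like E2f8, Slc4a1 was highest in control mouse 2, at 10.2 CPM against 1.75 and 2.53 CPM in the other control mice in Trad-KAPA. Of the 7 markers, however, 3 were highest in control mouse 2 and 4 in control mouse 3 among the control mice, in both kits. The membrane protein gene Epb42 was near the floor, with 1, 19 and 1 reads in control and 0, 3 and 0 in iron-loaded mice with Trad-KAPA, and 1, 4 and 1 against 0 in each with 3'-LEXO. The part of the antisense transcript and of erythroid RNA in the fall of E2f8 was not tested.

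**Figure D1:**
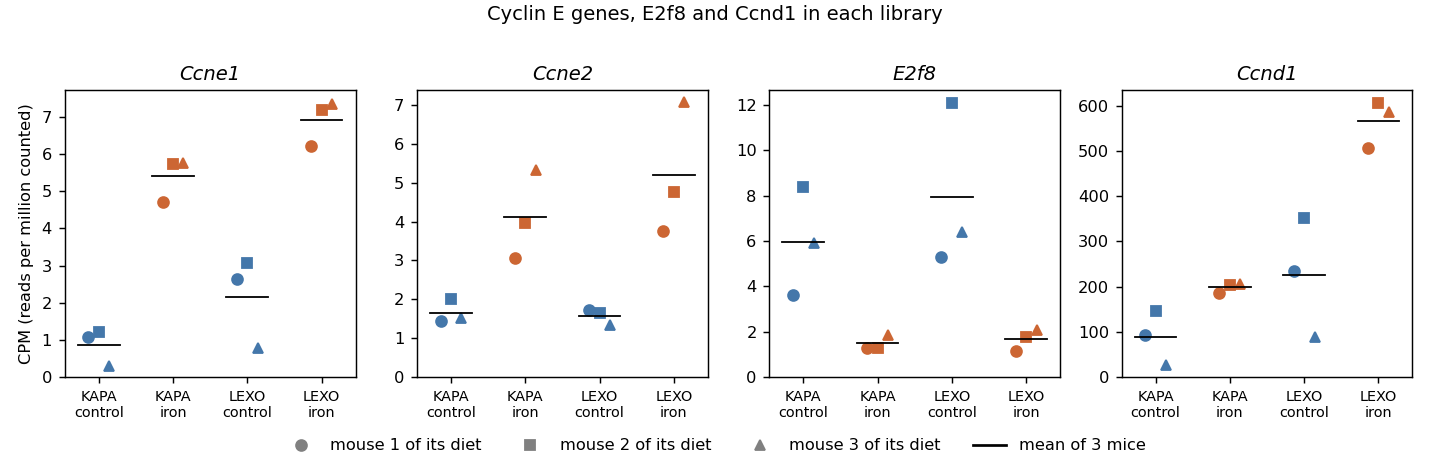
CPM of Ccne1, Ccne2, E2f8 and Ccnd1 in each of the 12 libraries, with a linear axis from 0 for each gene, 1 symbol for each mouse of its diet and a line at the mean of 3 mice. In both kits the iron-loaded mice lie above all control mice for Ccne1, Ccne2 and Ccnd1 and below them for E2f8, and control mouse 3 is the lowest for Ccne1 and Ccnd1.

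Ccnd1, the D-type cyclin that couples growth signals to the cycle, was by far the most abundant member per length, at 30.5 ± 15.2 CPM per kb of exon (SD over 6 Trad-KAPA libraries). Its level was 92.8, 147 and 26.4 CPM in control and 185, 203 and 206 CPM in iron-loaded mice with Trad-KAPA, and 235, 352 and 88.6 CPM against 506, 605 and 585 CPM with 3'-LEXO. The diets did not overlap in either kit, but on the log2 scale the control mice differed from each other by more than the diets did, with control mouse 3 lowest in both. The log2 fold changes of 1.11 ± 0.46 and 1.30 ± 0.37 did not pass the edgeR test (adjusted p = 0.131 for Trad-KAPA and 0.0690 for 3'-LEXO). DESeq2 called Ccnd1 in 3'-LEXO and not in Trad-KAPA, and edgeR without its filter on low counts called it in both. Over the 8 other settings the adjusted p of edgeR and DESeq2 lay between 0.00757 and 0.243 for Trad-KAPA and between 1.23e-08 and 0.0899 for 3'-LEXO. Ccna2, the cyclin of S phase and G2, was not called, with -0.12 in 3'-LEXO and 0.13 in Trad-KAPA. The 4 cyclins had a median log2 fold change of 1.18 in Trad-KAPA and 1.46 in 3'-LEXO, against 0.02 and 0.01 over all tested genes.

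Markers of phagocytic macrophages moved with the diet beside the cyclins. Of 6 such markers, 6 rose in Trad-KAPA and all 5 that were tested rose with 3'-LEXO by the edgeR test. Their sum went from between 64.0 and 81.9 CPM to between 312 and 377 CPM in Trad-KAPA. Within this sum, Lpl alone went from between 28.9 and 47.8 CPM to between 246 and 293 CPM. Trem2, a lipid receptor of these cells, had at most 1 read in each control library of both kits, and 18, 13 and 11 reads in the iron-loaded mice with Trad-KAPA but 13, 1 and 6 with 3'-LEXO. Marco, a scavenger receptor of liver macrophages, rose by 3.10 on the log2 scale in Trad-KAPA (edgeR adjusted p = 0.00143). It belongs to 8 Kupffer cell and macrophage markers, of which edgeR called 2 higher in Trad-KAPA and 1 with 3'-LEXO. Over all tested genes, 8.77% and 3.17% were called higher. The log2 fold change was positive for 8 of the 8 in Trad-KAPA and 7 with 3'-LEXO. The median log2 fold change of the 8 was 0.39 and 0.15. The neutrophil genes S100a8 and S100a9 rose in both kits, whereas 0 of 6 and 0 of 5 tested lymphocyte markers were called by edgeR and 0 by DESeq2, with 0 at an unadjusted p under 0.05 in both kits. The part of these cells in the rise of the E-type cyclins was not tested.

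Among the regulators, E2f1, the activator of S phase genes, was at 1.33, 1.81 and 1.16 CPM in control and 1.21, 1.16 and 1.94 CPM in iron-loaded mice in Trad-KAPA, and the diets overlapped. Foxm1, a factor for mitotic genes, had a log2 fold change of 0.66 ± 0.41 in Trad-KAPA and too few reads with 3'-LEXO. The chromatin remodeller Hells gave 0.66 and 0.24, and Uhrf1, which helps to maintain DNA methylation, gave -0.38 in Trad-KAPA. Besides E2f8, 0 of the 5 regulators were called by edgeR or DESeq2 or passed an unadjusted p of 0.05 in either kit. With E2f8 included, edgeR tested 5 of them in Trad-KAPA and 3 with 3'-LEXO. Over all tested genes, 17.1% and 6.10% were called, so that the group is too small for its 0 to say much.

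Of the 7 genes of the replication helicase and clamp, 0 were called by edgeR or DESeq2. At an unadjusted p under 0.05 there were 1 in Trad-KAPA and 2 with 3'-LEXO. Over all tested genes, edgeR called 17.1% and 6.10%, and 34.3% and 25.0% passed the unadjusted p. With 7 genes, 0 calls say little about the group. Mcm6 and Mcm7, which sit in the same MCM ring, had log2 fold changes of opposite sign. Mcm6 was at 7.55, 9.65 and 4.26 CPM in control and 7.93, 16.4 and 17.2 CPM in iron-loaded mice in Trad-KAPA, and Mcm7 was at 9.36, 9.11 and 8.46 CPM against 10.3, 4.58 and 5.89 CPM. In both cases iron-loaded mouse 1 lay apart from its cage mates and the diets overlapped. The log2 fold changes were 0.90 and -0.46 in Trad-KAPA (edgeR adjusted p = 0.111 and 0.236) and 0.65 and -0.29 in 3'-LEXO (edgeR adjusted p = 0.192 and 0.337). Without iron-loaded mouse 1, both were called in Trad-KAPA, at 1.19 and -0.82 (edgeR adjusted p = 0.0111 and 0.0109), and neither was in 3'-LEXO. Over the fits that left out 1 library, the edgeR adjusted p ran up to 0.278 for Mcm6 and 0.510 for Mcm7 in Trad-KAPA. Mcm7 overlaps Cops6 and Ap4m1 on the opposite strand, which held 11683 and 3183 reads over the 12 libraries against 1438 for Mcm7.

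Pcna, the sliding clamp of the DNA polymerases, was the steadiest of these genes in Trad-KAPA, at 6.16, 6.10 and 5.28 CPM in control and 6.78, 6.69 and 6.83 CPM in iron-loaded mice. The groups did not overlap there, but the log2 fold change was only 0.14 ± 0.14 (edgeR adjusted p = 0.518), and it was -0.05 ± 0.32 in 3'-LEXO. A pseudogene, Pcna-ps2, is counted apart and held 184 reads over all libraries. The highest members per kb of exon after Ccnd1 were Tk1 at 3.45 ± 1.22, Pcna at 2.63 ± 0.25, Mcm6 at 2.25 ± 1.11 and Mcm7 at 1.80 ± 0.50 CPM per kb in Trad-KAPA, whose ranges over libraries overlap. These levels depend on the length used: with the longest transcript in place of all exons, Tk1 was at 7.20, Pcna at 4.15, Mcm7 at 2.68 and Mcm6 at 2.41 CPM per kb.

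The genes of deoxynucleotide supply gave 0 calls of 4 in both kits by edgeR and DESeq2, and 0 of 4 at an unadjusted p under 0.05. Over all tested genes, edgeR called 17.1% in Trad-KAPA and 6.10% with 3'-LEXO, and 34.3% and 25.0% passed the unadjusted p. With 4 genes, a count of 0 says little about the group. Rrm1, the large subunit of ribonucleotide reductase, was at 12.9, 16.0 and 13.1 CPM in control and 13.0, 13.3 and 13.5 CPM in iron-loaded mice in Trad-KAPA. Tk1, the thymidine kinase of S phase, was at 26.5, 22.6 and 14.4 CPM against 8.43, 16.6 and 19.0 CPM, and iron-loaded mouse 1 was the lowest. Its log2 fold change was -0.58 ± 0.31 (edgeR adjusted p = 0.222), and Afmid, which overlaps it on the opposite strand, fell by 0.70 on the log2 scale (edgeR adjusted p = 0.0313).

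Of the 27 members that act in mitosis, 0 were called in either kit by edgeR or DESeq2. Over all tested genes, edgeR called 17.1% in Trad-KAPA and 6.10% with 3'-LEXO. Some of the 27 had too few reads to be tested. In Trad-KAPA edgeR tested 5 of 9 genes of mitotic entry and exit, 7 of 10 of chromosomes and 6 of 8 of the spindle. With 3'-LEXO it tested 8, 7 and 3 of these mitotic members. At an unadjusted p under 0.05, which 34.3% of all tested genes passed in Trad-KAPA and 25.0% with 3'-LEXO, 0 of them passed with the first kit and 1 with the second, Cenpa, the histone of the centromere (log2 fold change -0.71 ± 0.22, edgeR adjusted p = 0.0873), which is named after its values were seen and whose diets did not overlap there. The mean sums of the 27 genes were 33.9 ± 19.0 CPM in control and 37.0 ± 14.0 CPM in iron-loaded mice in Trad-KAPA (SD, n = 3 each), and 66.4 ± 32.2 and 62.6 ± 26.6 CPM in 3'-LEXO.

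Mki67, the marker of dividing cells, was at 1.57, 5.69 and 0.867 CPM in control and 1.79, 5.87 and 6.40 CPM in iron-loaded mice in Trad-KAPA. Top2a, the topoisomerase that untangles the chromosomes, was at 1.81, 5.29 and 0.578 CPM against 1.36, 3.89 and 3.09 CPM. Control mouse 2 and iron-loaded mice 2 and 3 were high for both genes, and control mouse 3, control mouse 1 and iron-loaded mouse 1 were low, so that the diets overlapped. The log2 fold change of Mki67 was 0.74 ± 0.66 and that of Top2a 0.07 ± 0.66 in Trad-KAPA, neither of them called.

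Cdk1, the kinase that drives entry into mitosis, was at 11.9, 13.7 and 5.25 CPM in control and 5.83, 16.8 and 18.5 CPM in iron-loaded mice with 3'-LEXO. Its partner Ccnb1 was at 0.857, 1.79 and 0.142 CPM against 0.230, 2.14 and 2.00 CPM. Both genes were lowest in control mouse 3 and iron-loaded mouse 1, and neither was called in 3'-LEXO (log2 fold changes 0.38 ± 0.43 and 0.58 ± 0.80). With Trad-KAPA, Ccnb1 had too few reads to be tested, as did Aurka, Plk1, Cdc25c, Aurkb, Bub1, Cenpe, Kif2c and Nusap1. Cdc25c, the phosphatase that activates Cdk1, had at most 3 reads in any Trad-KAPA library and 2 in any 3'-LEXO library, so that a difference was not detectable at this depth.

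The order of the mice was shared by most members. Control mouse 2 was the highest control mouse for 43 of 47 members in Trad-KAPA and 42 with 3'-LEXO, and the same held for 35.6% and 45.1% of all tested genes. Control mouse 3 was the lowest control mouse for 37 and 41 members, against 48.1% and 42.9% of all genes, and iron-loaded mouse 1 was the lowest of its diet for 39 and 42 members, against 34.6% and 34.4%. With library sizes scaled by TMM, the 3 counts were 43, 35 and 44 in Trad-KAPA and 40, 40 and 43 with 3'-LEXO. Both kits started from the same RNA, so that they repeat the library preparation and not the mouse. The same control mouse was the highest in both kits for 38 of 47 members, against 49.8% of all genes, and the same iron-loaded mouse for 25, against 54.2%. Ties went to the lower mouse number, as for Cdc25c with 3'-LEXO, where iron-loaded mice 1 and 3 were equally low. The genes are not independent of each other, and these counts describe 6 mice.

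Within the mitotic genes this order was plain in the sums. The 27 genes together were at 27.5, 55.3 and 18.9 CPM in control and 20.9, 44.5 and 45.7 CPM in iron-loaded mice in Trad-KAPA, and at 63.8, 99.8 and 35.5 CPM against 32.3, 73.4 and 82.0 CPM in 3'-LEXO. The highest mouse stood 2.92-fold above the lowest in the control cage and 2.18-fold in the iron-loaded cage in Trad-KAPA, and 2.81-fold and 2.54-fold in 3'-LEXO. The sum of the 63 other mitosis genes on a longer list, which are no members, ran from 76.8 to 128 CPM in control mice in Trad-KAPA. In iron-loaded mice it ran from 92.2 to 143 CPM, a smaller spread, with the same mouse lowest in each cage. Wee1 alone reached 28.7 CPM of this sum. Gene by gene the 63 shared the order of the mice. Control mouse 2 was highest for 46 in Trad-KAPA and 52 with 3'-LEXO, and control mouse 3 was lowest for 49 and 44. Iron-loaded mouse 1 was the lowest of its diet for 48 and 46. Ties went to the lower mouse number, so that each of these includes 1 gene without reads in any iron-loaded mouse. Over all 47 members, the range between the mice of each diet was compared with the difference of the diet means. In at least 1 diet it was larger for 44 in Trad-KAPA and 43 with 3'-LEXO. A range over 3 mice readily exceeds a difference of means, and all genes were not counted in this way. The counts are therefore no trait of these members. The median range was 1.07 in control and 0.70 in iron-loaded mice, and the median difference between diets 0.25, all on the scale log2(CPM + 0.5) in Trad-KAPA.

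**Figure D2:**
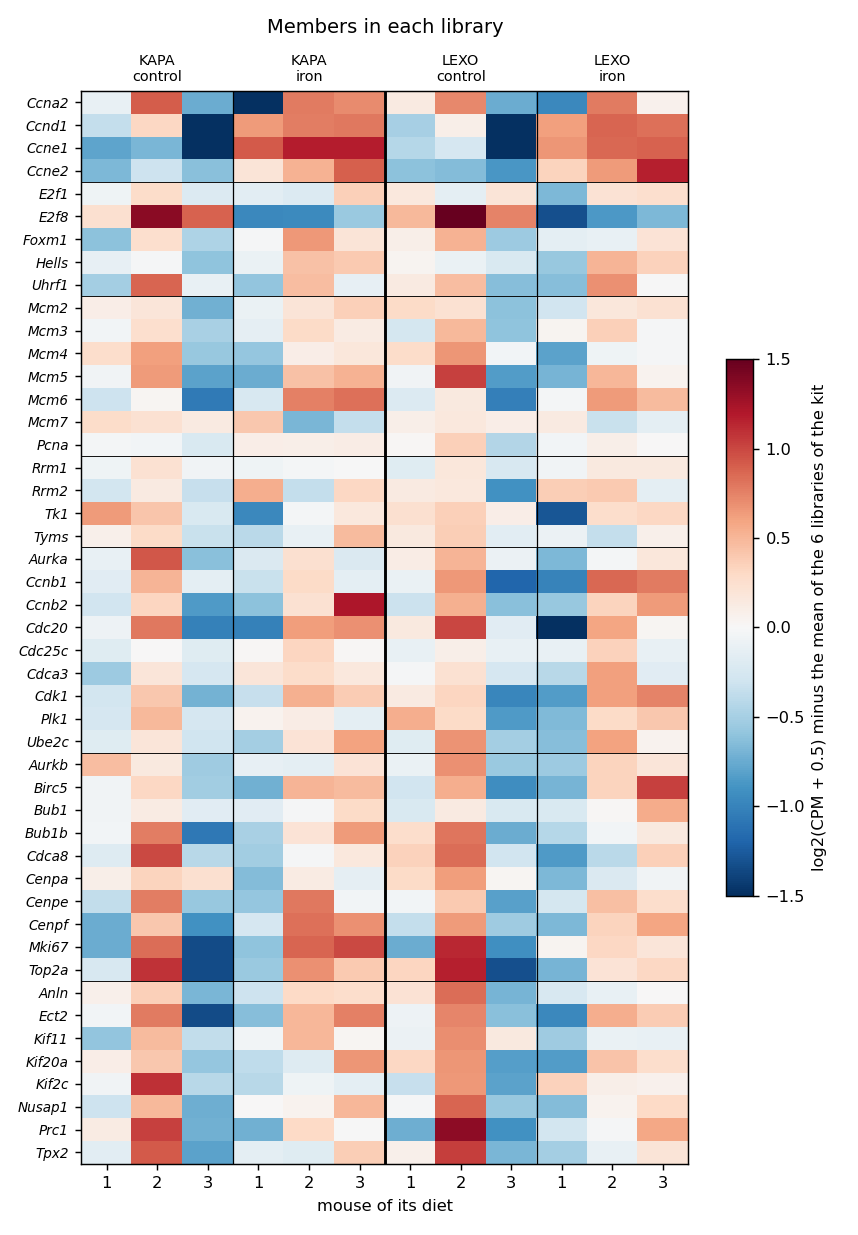
Deviation of each of the 47 members from its mean over the 6 libraries of a kit, as log2(CPM + 0.5), with red for higher, blue for lower and the scale limited to 1.5 in each direction, members in order of role and libraries by kit, diet and mouse. Control mouse 2 is mostly red, control mouse 3 and iron-loaded mouse 1 are mostly blue, and only for Ccnd1, Ccne1, Ccne2 and E2f8 do the values of the diets not overlap in both kits.

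**Figure D3:**
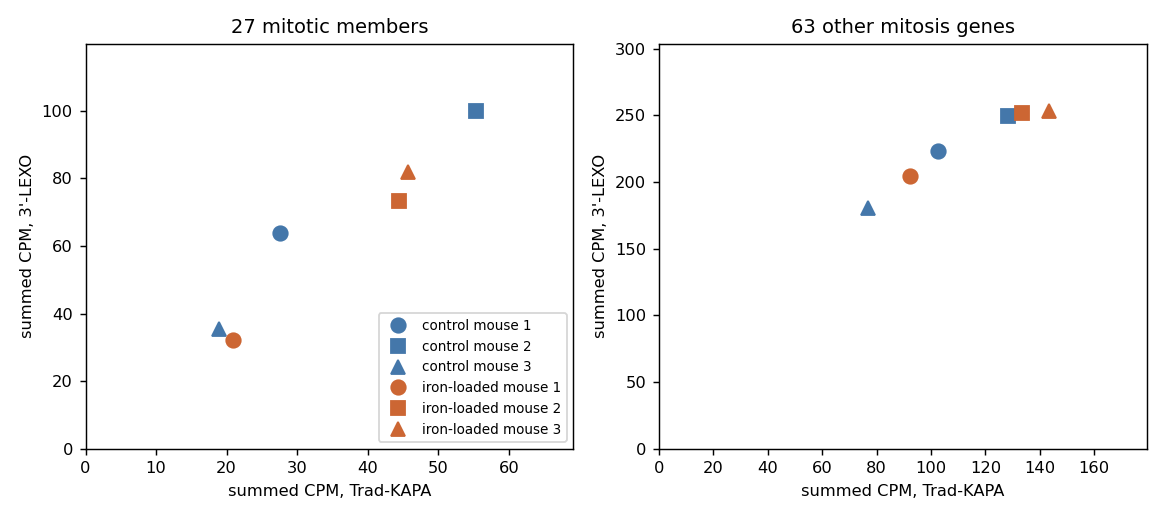
Summed CPM of the 27 mitotic members and of 63 other mitosis genes in each mouse, Trad-KAPA on the x axis and 3'-LEXO on the y axis, both linear from 0, with circles, squares and triangles for mice 1, 2 and 3, blue for control and orange for iron-loaded. Control mouse 3 and iron-loaded mouse 1 lie lowest in both kits and control mouse 2 lies highest for the members, so that the diets are mixed along the axis.

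Other measures also set single mice apart. Iron-loaded mouse 1 had the lowest albumin level of the 6, at 93071 CPM against 119514 to 134719 CPM in the others in Trad-KAPA. It was also the only mouse with a high level of Cdkn1a, the p21 inhibitor of cyclin-dependent kinases, at 24.1 CPM against 2.25 and 3.23 CPM in its cage mates and 1.61 to 2.17 CPM in control mice, and the same mouse stood out in 3'-LEXO, at 27.1 CPM against 2.501 to 3.91 CPM. Control mouse 3 had the highest sum of 3 haemoglobin genes, 140 CPM in Trad-KAPA against 16.4 and 58.9 CPM in its cage mates. Markers of other liver cells also differed between the mice in part along this order. Control mouse 3 was the lowest control mouse for 8 of 8 Kupffer cell and macrophage markers in both kits, and for 7 of 7 markers of sinusoidal endothelial cells in Trad-KAPA and 5 of 7 with 3'-LEXO. Iron-loaded mouse 1 was the lowest of its diet for 6 of 7 endothelial markers in Trad-KAPA but 1 of 7 with 3'-LEXO, and for 1 and 0 of 8 Kupffer cell and macrophage markers, or 6 and 0 with library sizes scaled by TMM. At the upper end, control mouse 1 and not control mouse 2 was highest for 7 of the 8 Kupffer cell and macrophage markers in both kits. Iron-loaded mouse 1 was the highest of its diet for 5 and 8 of them, or 1 and 7 with library sizes scaled by TMM. Of 7 hepatic stellate cell markers, 5 and 4 were lowest in control mouse 3, and 4 and 4 in iron-loaded mouse 1. The part of these differences in the order of the cell cycle genes was not tested.

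The longer list of 136 other cell cycle genes gave few calls as well. By edgeR, 7 rose and 3 fell of 94 tested in Trad-KAPA, where 8.77% and 8.37% of all tested genes did, and 3 rose and 0 fell of 99 tested in 3'-LEXO, where 3.17% and 2.92% did. DESeq2 called 7 higher and 4 lower in Trad-KAPA and 4 higher and 0 lower with 3'-LEXO. At an unadjusted p under 0.05 there were 15 with a higher and 10 with a lower level in iron-loaded mice in Trad-KAPA, and 17 and 8 with 3'-LEXO. The 3 genes called in both kits were Cdt1, which loads the MCM helicase, Myc, a growth factor-induced transcription factor, and Wee1, the kinase that holds Cdk1 inactive.

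Cdt1 was at 6.34, 4.42 and 3.98 CPM in control and 10.2, 9.70 and 9.49 CPM in iron-loaded mice in Trad-KAPA, with a log2 fold change of 0.92 ± 0.18 (edgeR adjusted p = 0.0151) and 0.82 ± 0.16 in 3'-LEXO (edgeR adjusted p = 0.0185). Myc was at 3.38, 3.82 and 2.10 CPM against 42.6, 12.3 and 11.6 CPM, and rose by 2.74 ± 0.51 in Trad-KAPA (edgeR adjusted p = 0.0127) and 2.18 ± 0.41 in 3'-LEXO (edgeR adjusted p = 0.0175). Wee1 was at 7.67, 9.31 and 3.18 CPM against 11.4, 27.8 and 28.7 CPM, and rose by 1.70 ± 0.43 (edgeR adjusted p = 0.0318) and 1.48 ± 0.31 (edgeR adjusted p = 0.0261). None of these groups overlapped in Trad-KAPA, but iron-loaded mouse 1 was the highest for Myc and the lowest of its diet for Wee1, as it was for the mitotic members.

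Fits with 1 library left out have fewer mice, and their calls over all genes changed too. These ran from 841 to 2803 in Trad-KAPA, against 2255 with all libraries, and from 199 to 871 with 3'-LEXO, against 811. The log2 fold changes of Cdt1, Myc and Wee1 stayed positive in every such fit, the lowest being 0.70, for Cdt1 in 3'-LEXO. With 1 library left out, Cdt1 was called in 4 of 6 fits in Trad-KAPA and 1 of 6 with 3'-LEXO, Myc in 5 and 3, and Wee1 in 1 and 1. With the replicate number as a block, Cdt1 and Wee1 were not called in 3'-LEXO (edgeR adjusted p = 0.0518 and 0.0543). The 10 inhibitors and pocket proteins that hold the cycle back gave 0 calls of 8 tested in both kits by edgeR and DESeq2. At an unadjusted p under 0.05 there were 1 in Trad-KAPA and 3 with 3'-LEXO. Over all tested genes, 17.1% and 6.10% were called by edgeR, and 34.3% and 25.0% passed the unadjusted p. Cdkn1a among them had log2 fold changes of 2.26 ± 0.83 and 1.95 ± 0.71 (edgeR adjusted p = 0.0936 and 0.125), which rest on iron-loaded mouse 1: without it the values were 0.48 and 0.25. Without the filter on low counts edgeR called Cdkn1a in both kits (adjusted p = 0.00197 and 2.58e-12).

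The diet changes of the members were not called different between the kits. Of 44 members tested for an interaction of kit and diet over all 12 libraries with edgeR, 0 were called, against 0.00% of 14384 genes, and 0 members passed an unadjusted p of 0.05, where 402 of all genes, 2.79%, did. With the mouse as a block, 12 of all genes and 0 members were called. The difference between the kits in log2 fold change was -0.93 ± 0.57 for Ccne1, 0.42 ± 0.43 for Ccne2 and -0.23 ± 0.55 for E2f8, so that differences of this size were not detectable here.

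The level of single members differed between the kits, as it did for many other genes. Of all 47 members, untested ones included, 19 had a higher CPM in 3'-LEXO in all 6 mice and 8 a lower one. Of the 12229 genes tested in both kits, 37.1% and 38.1% did. The share of members that were higher thus lay near that of all genes, and the share that were lower lay below it. Cdk1 had the largest excess in 3'-LEXO over Trad-KAPA on the scale log2(CPM + 0.5), at 11.97 ± 5.50 CPM against 1.59 ± 0.69 CPM (SD over 6 mice), followed by Birc5, the survivin of the chromosomal passenger complex, at 7.39 against 1.24 CPM, and the mitotic kinase Plk1 at 3.20 against 0.546 CPM. At the other end, Mki67 was at 0.709 ± 0.645 CPM in 3'-LEXO and 3.70 ± 2.54 CPM in Trad-KAPA, and Pcna at 1.93 ± 0.42 against 6.31 ± 0.60 CPM. Mki67 had 26, 85 and 12 reads in control and 25, 86 and 89 in iron-loaded mice with Trad-KAPA, but 2, 26 and 1 and 8, 9 and 8 with 3'-LEXO, where it was not tested. Birc5 and Plk1 are named after their values were seen.

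**Figure D4:**
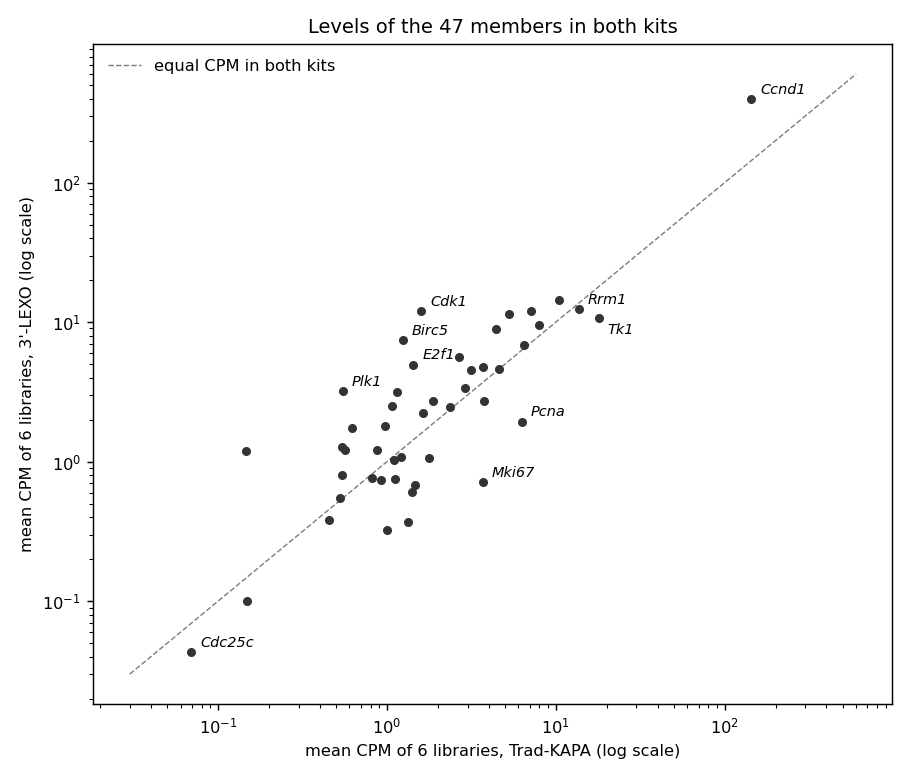
Mean CPM of each of the 47 members over the 6 Trad-KAPA libraries (x axis) and the 6 3'-LEXO libraries (y axis), both on log scales, with a dashed line at equal CPM. Ccnd1 is the highest point in both kits, Cdc25c the lowest, Cdk1, Birc5 and Plk1 lie well above the line, and Mki67 and Pcna lie below it.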

How the data were processed

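RNA from the livers of 3 control and 3 iron-loaded mice was measured in 12 libraries. The authors mapped the single-end reads of 50 bases with STAR 2.5.3a to GRCm38 (mm10) and assigned uniquely mapped reads to gene exons. The values used are these raw counts as deposited, neither normalized nor freed of duplicates. The counting program, its annotation release and its strand setting are not given in the sources used here.

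Groups and mouse numbers were taken from the sample labels. Gene symbols, types and exon lengths came from GENCODE M21, which gave a symbol for 26949 of 27022 identifiers and for all 47 members. The members and all gene lists were chosen with earlier results of these data known. CPM was computed from the library totals, between 10724672 and 16553616 counts, and counting error is largest for members with a few reads.

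Diet effects were fitted within each kit over all genes, with TMM scaling, filterByExpr and the quasi-likelihood F test of edgeR 4.0.16 under R 4.3.3 (limma 3.58.1), and p-values were adjusted by Benjamini-Hochberg at 0.05. The interaction of kit and diet was fitted over 12 libraries. Mouse numbers pair the libraries across kits, since both came from the same RNA (r of the deviations from the group means between 0.435 and 0.765 over 10326 genes), and the interaction was also fitted with the mouse as a block. The p-values cover the spread between 3 mice of 1 cage per diet. Alternatives were DESeq2 1.42.0, its size factors, no TMM, no or a stricter filter, counts drawn to 10000000 per library, a replicate block, 12 libraries in 4 groups, and leaving out each library. The fits were tested on simulated data. Named genes were the members called in either kit, the 5 members highest per kb, those with at most 3 reads in all libraries of a kit, 6 members fixed by name, the other cell cycle genes called in both kits and Cdkn1a. Promoter windows came from RefSeq (GRCm38.p6). Python 3.11.15 and matplotlib 3.10.9 were used for tables and figures.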

Additional observations from a re-analysis of the deposited data

How the results depend on the processing

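Without the filter on low counts, 4 members were called higher in Trad-KAPA, where Ccnd1 and Mcm6 joined, and in 3'-LEXO 4 were called higher and 3 lower, where Ccnd1, Mcm6, Cenpa and Mcm4 joined. The cause was not tested. With 1 library left out, members called higher ranged from 1 to 3 and lower from 1 to 2 for Trad-KAPA, and from 0 to 2 and 1 for 3'-LEXO, where Ccne1 or Ccne2 was lost in 5 and 4 of the 6 fits. E2f8 was called in every one of the 12 fits. The numbers of mice do not pair the diets, since the r of same-numbered mice over 10326 genes ran from -0.163 to 0.0964 and 2 of 3 numbers in Trad-KAPA and 1 of 3 with 3'-LEXO correlated best with their own. With the replicate block, 1 member was called higher in 3'-LEXO, where Ccne1 had an adjusted p of 0.0672, and 424 of all genes were called there instead of 811, and the counts of members called in Trad-KAPA did not change.

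Some small differences changed sign, none of them called. The log2 fold change of Pcna in 3'-LEXO was 0.00364 without TMM factors and 0.0301 with counts drawn to 10000000 per library. With 1 library or mouse left out, it ran from -0.25 to 0.19, that of Top2a between -0.37 and 1.13 for Trad-KAPA and between -0.89 and 0.24 for 3'-LEXO, and the interaction from -0.96 to 0.73 for Mki67, -0.35 to 0.0383 for Pcna, -0.27 to 0.23 for Cdk1 and -0.32 to 0.0073 for Cdt1. With 3 mice per diet in 1 cage each, a change of the members as small as these could not be told from the spread between mice.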
